A study of Mus musculus with 4 samples.

Results

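The genes described here encode the replicative DNA helicase. They are the 6 subunits of the MCM ring, Mcm2, Mcm3, Mcm4, Mcm5, Mcm6 and Mcm7, and the 4 subunits of GINS, Gins1, Gins2, Gins3 and Gins4. They were taken by name from the deposited array table: each is a row whose annotation carries that symbol alone. Every one of the 10 had 1 such row, and all 10 were bright enough to be among the 16635 genes tested, of 22180 genes with a row. A pair of further rows that carry the symbol Mcm7 together with a microRNA gene was left out by this rule.

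Expression was measured in Thy1+ LSK cells, a sorted bone marrow fraction (lineage-negative, Sca-1+, Kit+) that is enriched for haematopoietic stem cells. The 4 whole-transcript Affymetrix arrays were in groups of 2: Nol3+/+ mice, and Nol3-/- mice to which the sample labels add MPN, read here as myeloproliferative neoplasm. All mice were on the C57BL/6 background, untreated, and 11 to 18 months old. The labels give neither the sex of the mice nor the number of mice behind an array, so the p-values measure the spread between these arrays, which may be technical. The comparison asks how transcript levels in the stem cell fraction differ once Nol3, an inhibitor of apoptosis, is missing and the disease is present.

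As background, the MCM ring is loaded onto replication origins in G1 by the origin recognition complex with Cdc6 and Cdt1. In S phase Cdc45 and GINS join the loaded ring, and only this larger assembly unwinds DNA ahead of the polymerases. The genes are classic E2F targets, induced as a cell leaves quiescence, and most stem cells of adult marrow are quiescent. Old mouse stem cells are known for reduced MCM levels and replication stress.

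RefSeq promoter sequences (250 bases before to 50 after a start site, build GRCm38.p6) were held for 6 of the 10 genes, Mcm2, Mcm3, Mcm5, Mcm6, Mcm7 and Gins3. They are shown for 4 of them. The windows of Mcm2, which separated the groups in the arrays, and of Gins3, which did not, are not printed. The 4 shown are those of Mcm3 and Mcm6, which separated the groups, and of Mcm5 and Mcm7, which did not. Each is printed 5′ to 3′ on the strand of its gene, and capitals mark E2F words, found by searching both strands for TTTCCCGC, TTTCGCGC, TTTGCCGC and TTTGGCGC. For Mcm7, the table lists 2 start sites, and the window that holds such words is printed.
Mcm6, chr1:128359656-128359955, minus strand: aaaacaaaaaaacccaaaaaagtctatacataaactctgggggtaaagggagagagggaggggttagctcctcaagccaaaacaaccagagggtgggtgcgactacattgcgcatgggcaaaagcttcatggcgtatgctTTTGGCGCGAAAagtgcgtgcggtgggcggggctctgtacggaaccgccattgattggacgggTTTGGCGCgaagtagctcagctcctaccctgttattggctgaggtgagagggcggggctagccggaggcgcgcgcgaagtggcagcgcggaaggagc
Mcm3, chr1:20820263-20820562, minus strand: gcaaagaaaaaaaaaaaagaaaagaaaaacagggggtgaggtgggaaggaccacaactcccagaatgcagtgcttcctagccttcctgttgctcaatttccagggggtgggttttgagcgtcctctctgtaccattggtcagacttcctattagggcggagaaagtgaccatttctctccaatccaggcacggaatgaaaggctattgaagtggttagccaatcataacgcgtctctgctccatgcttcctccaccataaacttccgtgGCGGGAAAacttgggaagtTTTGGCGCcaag
Mcm5, chr8:75109259-75109558, plus strand: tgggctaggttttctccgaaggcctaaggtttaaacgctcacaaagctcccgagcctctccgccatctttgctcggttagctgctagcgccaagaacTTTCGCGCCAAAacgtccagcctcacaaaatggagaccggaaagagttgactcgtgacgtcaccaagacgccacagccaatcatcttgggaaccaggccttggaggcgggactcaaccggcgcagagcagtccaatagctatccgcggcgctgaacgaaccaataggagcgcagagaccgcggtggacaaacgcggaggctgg
Mcm7, chr5:138171834-138172133, minus strand: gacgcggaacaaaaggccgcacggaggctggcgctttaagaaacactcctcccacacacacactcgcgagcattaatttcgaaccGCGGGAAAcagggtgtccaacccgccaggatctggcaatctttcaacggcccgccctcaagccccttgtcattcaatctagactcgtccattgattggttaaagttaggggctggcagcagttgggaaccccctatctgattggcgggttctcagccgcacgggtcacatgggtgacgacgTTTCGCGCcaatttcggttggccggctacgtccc

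An E2F word was in a window of 5 of the 6 genes (5 of their 7 windows), against 2.26% of 32851 promoter windows of the same length. With the start site as position 0, Mcm6 had an overlapping pair of words from -110 and -106 and a further word from -47. Mcm5 also had an overlapping pair, from -153 and -149. In Mcm3 both words lay after the start site, from 19 and 38, and in Mcm7 they lay from -165 and 16. Of these printed genes, Mcm3 and Mcm6 separated the groups and Mcm5 and Mcm7 did not. Mcm4, Gins1, Gins2 and Gins4, which also separated them, had no window. A link between words and separation was not tested. Gins3, which did not separate the groups, had 1 word, from -41, and the window of Mcm2, which separated them, had none. The CCAAT box, searched as CCAAT on both strands, was in all 6 genes and in 37.4% of all windows, and the E-box CACGTG in 0 of the 6 and in 7.15%. The GC box, searched as GGGCGG on both strands, was in 5 of the 6 genes, as was the E2F word, and in 35.7% of all windows. Among 53 other replication genes with a window, 15 held an E2F word, 25 a CCAAT box and 40 a GC box. A match is a string of letters and does not show that a factor binds.

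The arrays had similar medians, between 5.35 and 5.39 log2 units. Nol3+/+ replicate 1 stood apart, correlating at r = 0.899 to 0.911 with the other arrays across the tested genes, where the other pairs gave 0.929 to 0.949. Nol3 itself read 5.31 and 5.52 in Nol3+/+ against 5.38 and 5.50 in Nol3-/- MPN, and because the labels do not place the deletion relative to the probes, this does not check the genotype. Of the markers used in the sort, Kit read 8.07 and 8.10 in Nol3+/+ against 8.38 and 7.39 in Nol3-/- MPN. Thy1 was near the limit for dim genes of 4.835 (4.74 and 5.02, against 4.64 and 5.24), and Ly6a had no row with 1 symbol. Xist, the RNA of the inactive X chromosome, was 5.43 log2 units higher in Nol3-/- MPN, and the Y-linked genes Eif2s3y, Uty and Kdm5d differed by -2.74, -1.50 and -1.19. Genotype, the disease label and sex-linked signal therefore follow the same division of the arrays and cannot be told apart.

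Most helicase genes read higher in Nol3-/- MPN cells, but no single gene passed the test over all genes. Of the 10 genes, 9 had a mean above that of Nol3+/+, against 51.7% of all genes tested, and the median log2 difference was 0.40 against 0.01 over all genes tested. In 7 of the 10, Mcm2, Mcm3, Mcm4, Mcm6, Gins1, Gins2 and Gins4, both Nol3-/- MPN arrays lay above both Nol3+/+ arrays, a separation (upward, for short) found for 19.7% of all genes tested. The opposite, downward separation was seen for 0 of the 10 and for 15.9% of all genes. An unadjusted limma p under 0.05 with a higher mean was reached by 4 members, Gins1, Mcm6, Gins4 and Mcm3, against 3.73% of all genes, and with a lower mean by 0 members, against 2.07%. After Benjamini-Hochberg adjustment over all 16635 genes, limma called 0 of the 10 and 4 genes (0.0240%) in all. With 2 arrays a group, the smallest p that an exact permutation of the arrays could give for a single gene is 0.333 (two-sided).

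With any one array left out, the median difference of the members ranged from 0.39 to 0.44. A gene that separates the groups goes on doing so when an array is dropped, so the count of 7 has no such check. The count at an unadjusted p under 0.05 fell from 4 to 1 without Nol3-/- MPN replicate 1, where it was Gins1, and to 1 without Nol3-/- MPN replicate 2, where it was Mcm6. The share of all genes that reached this threshold with a higher mean fell as well, from 3.73% to 2.51% and 3.14%.

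**Figure D1:**
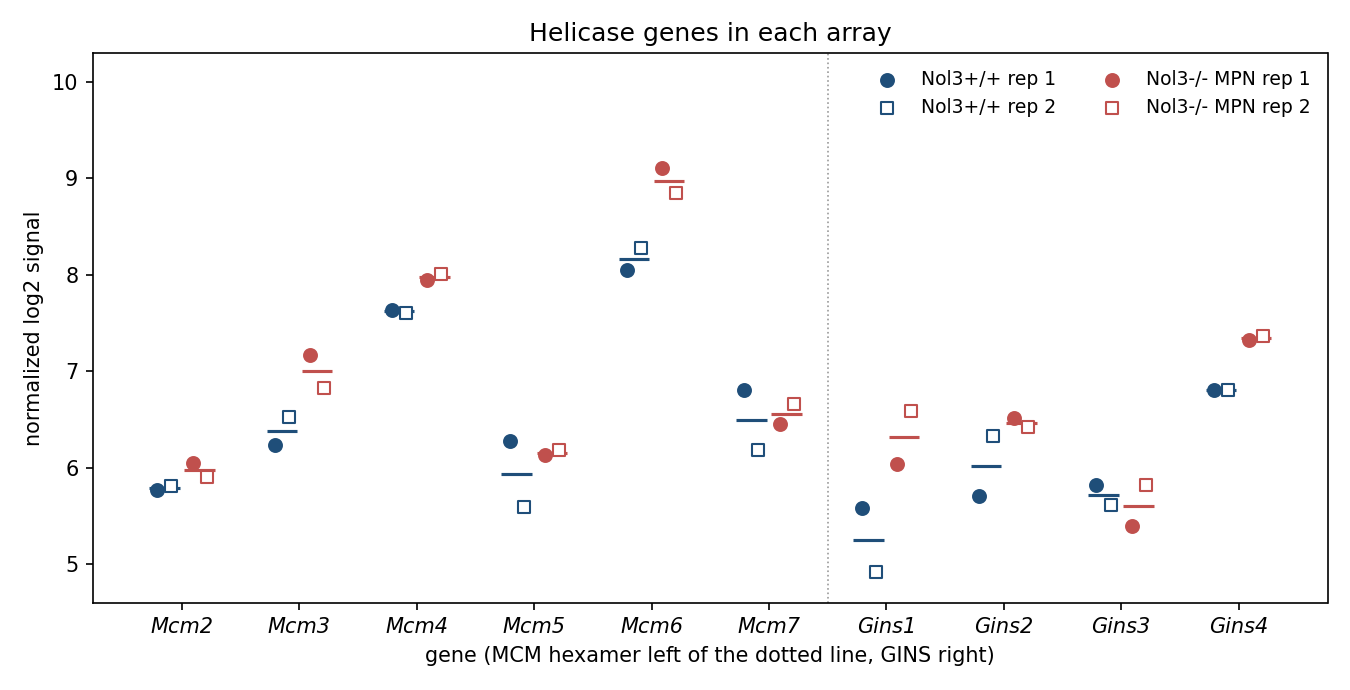
Normalized log2 signal (vertical axis) of the 10 helicase genes (horizontal axis) in each array, with Nol3+/+ in blue and Nol3-/- MPN in red; circles are replicate 1, squares replicate 2, and bars the group means. Both red points lie above both blue points for 7 genes, and Mcm5, Mcm7 and Gins3 overlap; heights of different genes are not comparable, because each row has its own probes.

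Within the MCM ring, Mcm6 was furthest apart. Its product contacts Cdt1 when the ring is loaded. Mcm6 read 8.05 and 8.28 in Nol3+/+ against 9.11 and 8.84 in Nol3-/- MPN. The gap between the nearest arrays of the groups was 0.57 log2 units, wider than the steps of 0.23 and 0.26 between arrays of 1 group. Its log2 difference of 0.81 (SE 0.23, 95% interval 0.22 to 1.40, limma adjusted p = 0.841) is a ratio of 1.75, and by limma's unadjusted p the gene ranked at 302 among 16635.

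Mcm3, whose product helps recruit the ring to the origin, showed the same order of arrays. It read 6.23 and 6.53 in Nol3+/+ against 7.17 and 6.83 in Nol3-/- MPN. Its log2 difference was 0.62 (SE 0.23, interval 0.04 to 1.20, limma adjusted p = 0.841). For both genes Nol3+/+ replicate 1 was the lowest array and Nol3-/- MPN replicate 1 the highest. Omitting Nol3+/+ replicate 1 gave 0.47 for Mcm3, and omitting Nol3-/- MPN replicate 1 gave 0.45.

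Mcm4 and Mcm2 were separated by smaller steps. The N-terminal tail of Mcm4 is a main target of the Cdc7 kinase that fires origins. It read 7.64 and 7.60 in Nol3+/+ against 7.94 and 8.004 in Nol3-/- MPN. The arrays of each group lay within 0.06 of each other, yet limma, which moderates such small spreads toward those of other genes, gave an SE of 0.21 for the difference of 0.35 (interval -0.19 to 0.90, adjusted p = 0.857). Mcm2, a subunit that also carries histones at the fork, read 5.77 and 5.81 in Nol3+/+ against 6.05 and 5.90 in Nol3-/- MPN. Its difference of 0.19 (SE 0.15, interval -0.19 to 0.56, adjusted p = 0.878) was the smallest of the 7 separated genes.

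Mcm5 and Mcm7 overlapped between the groups, and in both the overlap came from a split within Nol3+/+. Mcm5 forms the DNA entry gate of the ring together with Mcm2. It read 6.27 and 5.59 in Nol3+/+ against 6.13 and 6.18 in Nol3-/- MPN. Mcm7, whose transcript hosts a microRNA cluster in an intron, read 6.81 and 6.18 in Nol3+/+ against 6.45 and 6.66 in Nol3-/- MPN. In both genes Nol3+/+ replicate 1 was the highest of the 4 arrays and Nol3+/+ replicate 2 the lowest, the reverse of the order of these arrays in Mcm3 and Mcm6. The log2 differences were 0.22 for Mcm5 (SE 0.26, interval -0.44 to 0.88) and 0.06 for Mcm7 (SE 0.27, interval -0.62 to 0.74), with limma adjusted p-values of 0.929 and 0.989. Without Nol3+/+ replicate 2 they were -0.12 and -0.25, and without Nol3+/+ replicate 1 they were 0.57 and 0.37. The Mcm7 difference was also below 0, at -0.04, without Nol3-/- MPN replicate 2. Their intervals include the estimates of Mcm2, Mcm3 and Mcm4, and a difference between ring subunits was not tested.

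**Figure D2:**
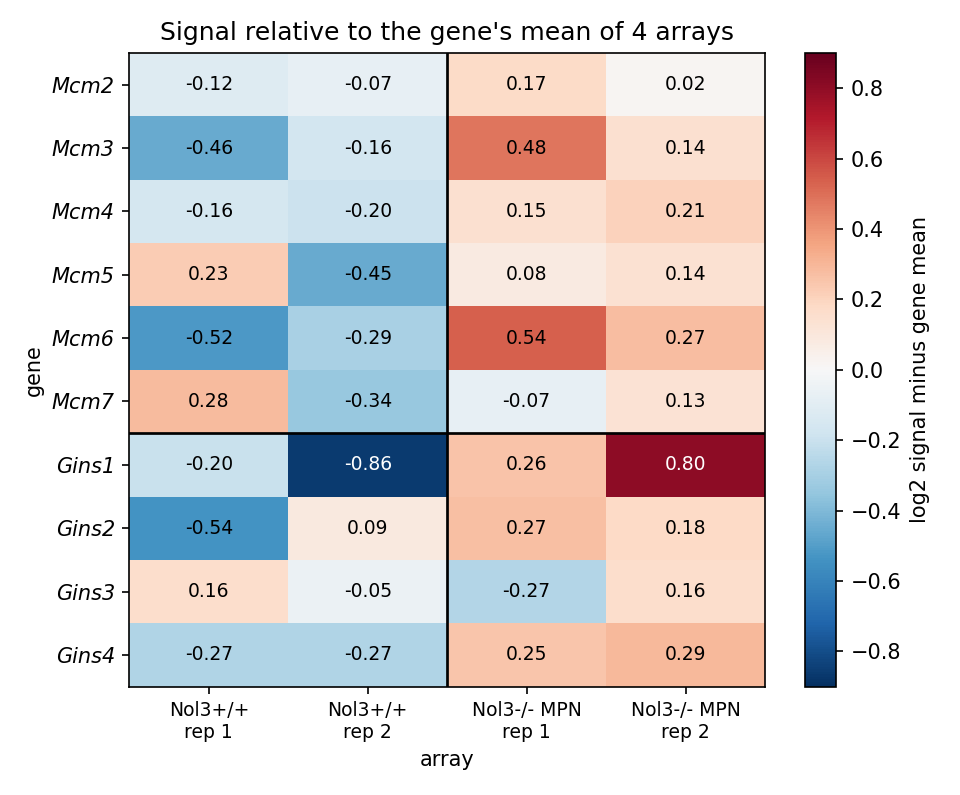
Log2 signal minus the gene's mean over the 4 arrays (colour and printed value), with genes in rows and arrays in columns; the horizontal line parts MCM from GINS genes and the vertical line the groups. Gins4 and Mcm4 differ between the groups with little spread within them, whereas Gins1 ranges from -0.86 in Nol3+/+ replicate 2 to 0.80 in Nol3-/- MPN replicate 2.

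Among the GINS genes, Gins1 had the largest estimated difference of all 10 and also a wide spread. Gins1 is known to be needed for proliferation of haematopoietic stem and progenitor cells. It read 5.58 and 4.92 in Nol3+/+ against 6.04 and 6.59 in Nol3-/- MPN. The groups did not overlap, with a gap of 0.46, but the arrays of Nol3+/+ were 0.66 apart and those of Nol3-/- MPN 0.54. Its log2 difference of 1.06 (SE 0.30, interval 0.31 to 1.82, limma adjusted p = 0.841) became 0.73 without Nol3+/+ replicate 2 and 1.39 without Nol3+/+ replicate 1. The 4.92 of Nol3+/+ replicate 2 was a dim value, near the limit of 4.835 used to choose the genes tested. That limit is a percentile of the gene means and not a measured background, and detection p-values were not used here.

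Gins4 was the most even of the GINS genes. It read 6.80 and 6.81 in Nol3+/+ against 7.32 and 7.36 in Nol3-/- MPN, and each Nol3-/- MPN array exceeded each Nol3+/+ array by 0.51 to 0.56. Its log2 difference was 0.54 (SE 0.20, interval 0.03 to 1.04, limma adjusted p = 0.841). Omitting any one array left the difference between 0.52 and 0.56.

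Gins2 and Gins3 were less clear. Gins2 read 5.71 and 6.33 in Nol3+/+ against 6.51 and 6.42 in Nol3-/- MPN. The groups were separated by 0.09 only, while the Nol3+/+ arrays were 0.63 apart. Its difference of 0.45 (SE 0.25, interval -0.19 to 1.09, limma adjusted p = 0.846) was 0.14 without Nol3+/+ replicate 1 and 0.76 without Nol3+/+ replicate 2. Gins3 read 5.82 and 5.61 in Nol3+/+ against 5.40 and 5.82 in Nol3-/- MPN, and was the 1 member with a lower mean in Nol3-/- MPN. Its difference of -0.11 (SE 0.19, interval -0.60 to 0.38, limma adjusted p = 0.958) was 0.10 without Nol3-/- MPN replicate 1.

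**Figure D3:**
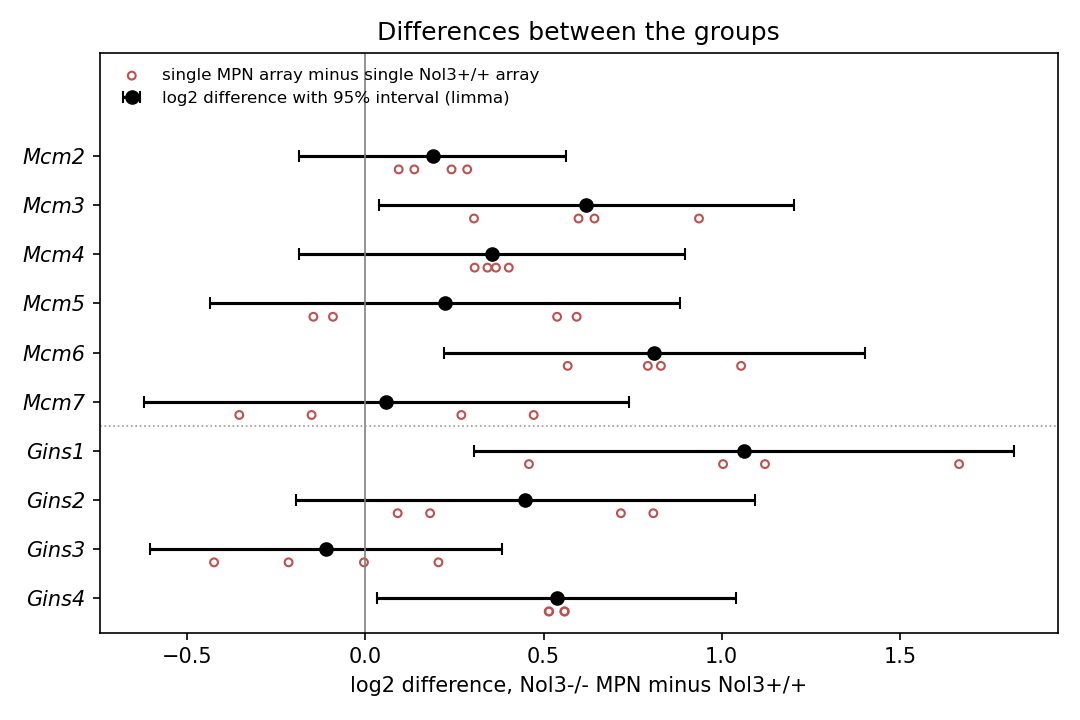
Log2 difference of each gene (horizontal axis; black points with 95% limma intervals) and, in red beneath it, the 4 differences between single Nol3-/- MPN and single Nol3+/+ arrays. The intervals of Mcm3, Mcm6, Gins1 and Gins4 lie above 0 before adjustment over all genes, and single-array differences fall on both sides of 0 for Mcm5, Mcm7 and Gins3.

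Comparing single arrays restates the same values and is no further support. The 7 separated members are above 0 in every comparison between groups by definition, so each such count is at least 7. Nol3-/- MPN replicate 2 was above Nol3+/+ replicate 2 for 10 of 10 genes, with a median difference of 0.44, and above Nol3+/+ replicate 1 for 7, with a median of 0.46. Nol3-/- MPN replicate 1 was above Nol3+/+ replicate 2 for 9 genes (median 0.43) and above Nol3+/+ replicate 1 for 7 (median 0.38). Over all genes tested, these differences were above 0 for 47.4% to 57.02% of genes. Within groups the members showed no common shift: 5 of 10 were higher in Nol3+/+ replicate 2 than in replicate 1 (median -0.02) and 6 of 10 in Nol3-/- MPN replicate 2 than in replicate 1 (median 0.05). The single genes were nonetheless spread within groups, by a median size of 0.26 between the Nol3+/+ arrays and 0.18 between the Nol3-/- MPN arrays. Over all genes tested these sizes were 0.20 and 0.18.

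Genes of the wider replication machinery were considered by the step they serve, with the same limma fit. In 7 lists of such genes without the members, 59 were tested, and limma called 0 by adjusted p. Both Nol3-/- MPN arrays exceeded both Nol3+/+ arrays for 15 of the 59 and lay under them for 7, which is 25.4% and 11.9%, and the median difference was 0.13. These shares lie nearer those of all genes than the members' 7 of 10, though the difference between the lists was not tested.

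The genes that load the helicase had 7 of 10 tested members above 0, beside 51.7% of all genes, with a median of 0.25. Of the 10, 4 separated the groups upward and 2 downward, beside 19.7% and 15.9% of all genes. Cdc6, the loading ATPase, read 5.72 and 6.07 in Nol3+/+ against 6.48 and 6.45 in Nol3-/- MPN, a difference of 0.57 (SE 0.19, adjusted p = 0.841). Orc1, an ATPase subunit of the origin recognition complex, differed by 0.32 (SE 0.14, adjusted p = 0.841). Cdt1, the other loading factor, read 5.07 and 5.05 against 4.91 and 5.03, a difference of -0.09. Orc4 differed by -0.40 and Mcmbp, which binds MCM subunits outside chromatin, by 0.25.

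Genes that turn the loaded ring into an active helicase had a median of 0.30 over 7 tested, with 2 of them separated upward and 1 downward, beside 19.7% and 15.9% of all genes. Cdc45, the third part of the active helicase besides MCM and GINS, read 5.76 and 5.43 in Nol3+/+ against 5.99 and 5.86 in Nol3-/- MPN (difference 0.33, SE 0.17, adjusted p = 0.841). Topbp1, a scaffold for GINS and Cdc45 recruitment, differed by 0.45 (SE 0.21, adjusted p = 0.841). Mtbp, a partner of Ticrr in origin firing, differed by -0.26, and Cdc7 by 0.06.

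Of the MCM paralogues outside the ring, 0 of 4 separated the groups in either direction, beside 19.7% upward and 15.9% downward over all genes, and 4 genes are too few to set this count apart from those shares. Mcm8 and Mcm9, which act together in homologous recombination, differed by -0.12 and -0.19. Mcm10, which binds the active helicase, differed by 0.14 and Mcmdc2 by 0.11, and the median of the 4 was 0.00.

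Polymerase and primase genes had 9 of 12 members above 0, beside 51.7% of all genes, and a median of 0.22. Pola1 was at 0.58 and Prim1 at 0.47 (limma adjusted p = 0.841 each). Of the 12, 5 separated the groups upward and 1 downward, beside 19.7% and 15.9% of all genes. Medians were closer to 0 for the clamp, clamp loader and single-strand binding genes (0.01 over 8), fork stability and Okazaki fragment genes (0.02 over 11) and nucleotide supply genes (0.07 over 7). Pcna, the sliding clamp, read 10.2 and 10.5 in Nol3+/+ against 10.4 and 10.5 in Nol3-/- MPN. In these lists Rfc2 was at 0.57, Rpa2 at -0.49, the checkpoint kinase gene Chek1 at -0.62, Atrip at 0.37, Dut at -0.36 and Dck at -0.22, each with an adjusted p of 0.841 to 0.881. Helicase and polymerase genes thus had higher medians than clamp and fork genes, a description of these arrays only.

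**Figure D4:**
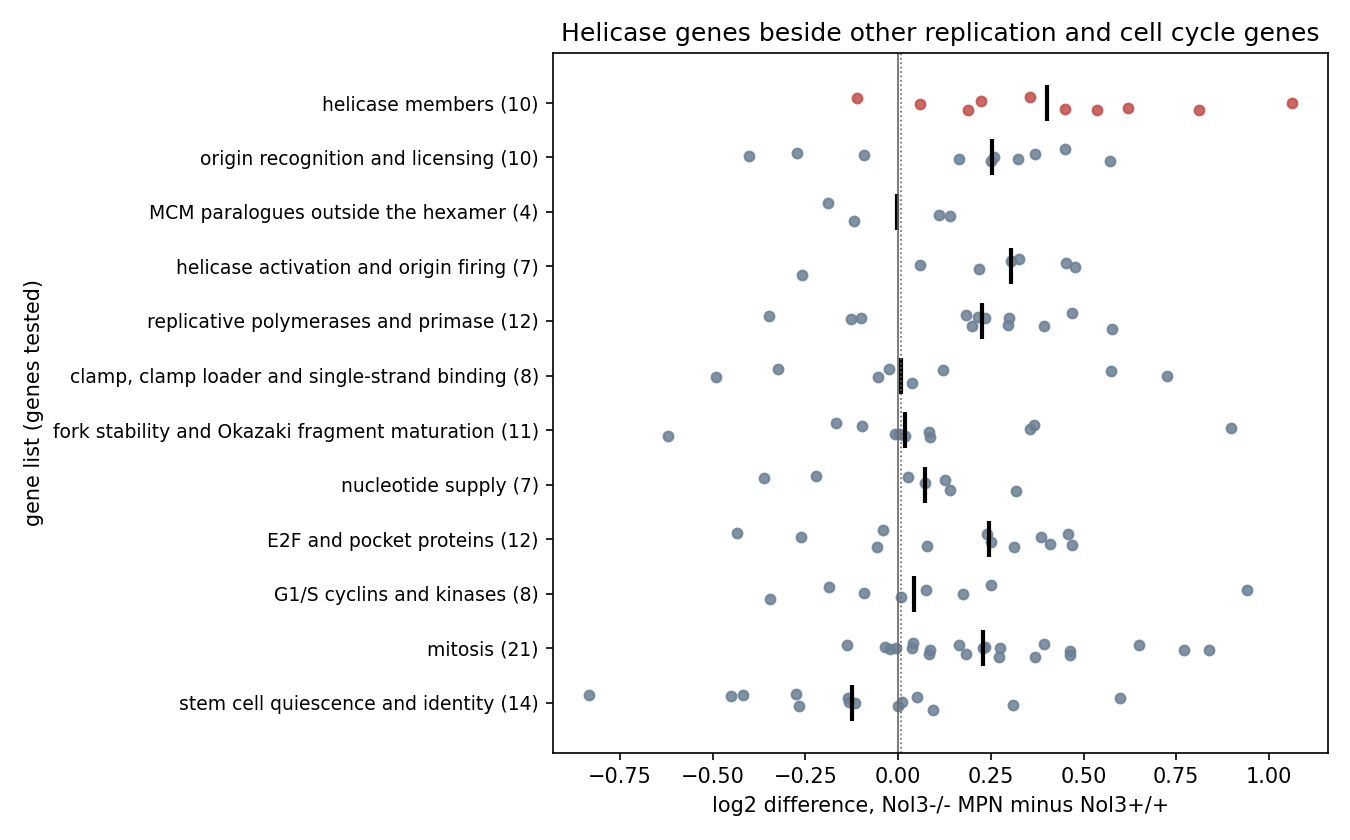
Log2 difference (horizontal axis) of each tested gene in lists of replication, cell cycle and stem cell genes (vertical axis, number tested in brackets), with helicase genes in red; black bars are list medians, the solid line is 0 and the dotted line the median of all genes tested, 0.01. The helicase median is 0.40, and the medians of the other lists lie between -0.12 and 0.30.

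The regulators above the helicase genes were also measured. Of 12 tested E2F and pocket protein genes, 4 separated the groups upward and 0 downward, beside 19.7% and 15.9% of all genes, with a median of 0.25. The activator gene E2f3 differed by 0.38 (SE 0.16) and the dimer partner gene Tfdp2 by 0.47 (SE 0.25), both with a limma adjusted p of 0.841. E2f1 differed by -0.26, and E2f2 was below the limit for dim genes. Among G1/S cyclins and kinases the median was 0.04 over 8 tested. Cdk6, which phosphorylates pocket proteins, read 7.80 and 8.39 in Nol3+/+ against 9.13 and 8.94 in Nol3-/- MPN (difference 0.94, SE 0.28, adjusted p = 0.841), and Ccnd3 differed by -0.34.

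Genes of mitosis, used here as a readout of cycling cells from genes outside the replication lists, had 17 of 21 tested members above 0. The share above 0 over all genes was 51.7%. The groups were separated upward for 9 of the 21 and downward for 1, where the shares over all genes were 19.7% and 15.9%, and the median was 0.23. Kif20b differed by 0.84 (SE 0.21) and Bub1b by 0.65 (SE 0.20), both with a limma adjusted p of 0.841. The proliferation marker gene Mki67 read 8.45 and 8.88 in Nol3+/+ against 9.12 and 8.94 in Nol3-/- MPN. The mitosis genes below 0 were Bub1 (-0.14, separated downward), Ccnb2 (-0.04), Cenpf (-0.02) and Ttk (-0.01). Aurka and Plk1 differed by 0.04 and 0.08 only. Stem cell quiescence and identity genes separated the groups upward for 3 of 14 tested and downward for 6, beside the same 19.7% and 15.9%. Their median was -0.12, with Hlf at -0.83 (SE 0.18, adjusted p = 0.841) and Erg at 0.60 (SE 0.23, adjusted p = 0.841). In bulk RNA, fewer or more cells in cycle and a different amount of helicase RNA per cell cannot be told apart.

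Markers of other cell types that a marrow sort could hold were read beside the helicase genes, and their part in the result was not tested. In 7 such lists 57 of 64 markers had a row, 49 were tested, and limma called 0. Separation of the groups was upward for 10 of the 49, or 20.4% against 19.7% of all genes, and downward for 15, or 30.6% against 15.9%. Granulocyte and monocyte markers had a median difference of -0.23, with 1 of 10 separated upward and 4 downward, and a mean log2 signal over 13 matched markers of 5.90 and 6.27 in Nol3+/+ against 5.97 and 6.01 in Nol3-/- MPN. Among these, S100a8 and S100a9, whose products form calprotectin of neutrophils and monocytes, were lower in Nol3-/- MPN without overlap. S100a8 read 7.03 and 7.88 in Nol3+/+ against 6.60 and 6.58 in Nol3-/- MPN (difference -0.86, SE 0.33, limma adjusted p = 0.841). S100a9 read 8.93 and 9.40 against 8.41 and 8.26 (difference -0.83, SE 0.26, limma adjusted p = 0.841). Both differences were about as large in size as that of Mcm6, and opposite in sign. The list did not move together: 7 of its 10 tested markers were below 0 and 3 above, beside 51.7% above 0 over all genes. Those above were Adgre1 (0.37, without overlap), Mpo (0.48) and Elane (0.07). Ly6g, too dim to be tested, read 4.43 and 4.24 in Nol3+/+ against 4.96 and 5.38 in Nol3-/- MPN. Erythroid markers, of which 8 of 12 were matched and the globin genes of the list were not, had a median of -0.07 and mean signals of 6.49 and 6.42 against 6.37 and 6.50. Of these 8, 1 was separated upward and 3 downward, with Tfrc at 0.66 and Car2 at -0.42. Megakaryocyte and platelet markers had a median of -0.10, with mean signals of 5.73 and 5.53 against 5.44 and 5.61. Of 8 tested, 1 was separated upward and 3 downward. Mmrn1 differed by -0.83, about the size of the S100a8 and S100a9 differences, and Pf4 by 0.59. B cell markers had a median of 0.18 over 4 tested, with mean signals of 5.18 and 5.18 against 5.26 and 5.37, while Ms4a1 and Vpreb1 were below the limit for dim genes. Of the 4, 3 were separated upward and 0 downward. These lists are too short to set such counts apart from the 19.7% and 15.9% of all genes. The medians were 0.06 for T and NK cells, 0.02 for basophils, mast cells and eosinophils, and 0.06 for stroma. In these equally short lists upward separation was seen for 3 of 7, 0 of 5 and 1 of 7 tested markers. It was downward for 1, 2 and 2, in the same order. Among the basophil, mast cell and eosinophil markers Prg2 differed by -0.82 and Cpa3 by 0.70.

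To ask which genes had the most similar pattern, each gene's 4 values were centred on their mean and set against the mean centred profile of the MCM ring, which was -0.12 and -0.25 in Nol3+/+ against 0.22 and 0.15 in Nol3-/- MPN. The 5 closest genes other than members were Atg2b, Cnbd2, Olfr615, Sdhaf2 and Tmem159, at root mean square distances of 0.01 to 0.02 log2 units over the 4 arrays. These 5 are outside the replication lists used here, and a shared role with the ring was not tested. Olfr615 read 4.79 and 4.65 in Nol3+/+, under the limit for dim genes of 4.835. It was tested only because it read 5.16 and 5.06 in Nol3-/- MPN. Gins4, which is not part of that mean, lay at 0.10, rank 571 among the genes tested. Mcm4 lay at 0.06 and Mcm2 at 0.12, but ring genes help to make the profile, so their closeness to it is partly built in. The other 7 members lay at 0.21 to 0.45, and of the ring's own genes Mcm3, Mcm5, Mcm6 and Mcm7 were among these.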

How the data were processed

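Column-purified RNA was amplified isothermally and biotin-labelled, per the labels' protocols. The authors deposited 1 table of normalized log2 signals for 41345 rows. The submitters' processing notes name Affymetrix Expression Console and Transcriptome Analysis Console. Tool versions and the normalization method were not given in the sources used here. Base 2 was taken from the range of 2.84 to 13.5. The number of arrays limits the precision.

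Rows were named through the platform annotation: 23521 carried 1 symbol, 1814 several. Of several rows of a gene the brightest was used. Genes with a mean under percentile 25 of gene rows (4.835) were left out. The comparison used limma 3.58.1 with R 4.3.3 (linear fit, eBayes with a variance trend, 2 residual and 3.19 prior degrees of freedom), with Benjamini-Hochberg adjustment over 16635 genes at 0.05, and the code was tested on simulated data. SE is limma's. The members and lists were chosen with earlier results of these data known. Named genes are the members, Nol3, sort and sex-linked genes, the 2 genes of smallest p in each replication, cell cycle and stem cell list plus examples, and the 5 genes nearest in profile. Alternatives were the replicate block, omitted arrays, variance model, array weights, quantile normalization, dim limits, averaged rows and omission of X- and Y-linked genes.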

Additional observations from a re-analysis of the deposited data

How the results depend on the processing

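Of the 12 alternatives, only array omission and quantile normalization could move the helicase differences. The groups are balanced, each member has 1 row, all pass the dim limits, and none is X- or Y-linked. The median log2 difference was 0.39 to 0.44 with 1 array omitted and 0.42 after quantile normalization. In the alternatives that kept every array, 0 of the 10 genes passed the adjusted threshold. With the replicate number as a block, limma called 0 of all genes, and 2 helicase genes, Mcm6 and Gins1, were higher at an unadjusted p under 0.05 in place of 4, beside 3.79% of all genes in place of 3.73%. The labels do not say that a number marks a shared litter or day, and deviations of same-numbered arrays from their group means correlated at r = 0.05. Over omissions of 1 array, that helicase count ranged from 1 to 3 (all genes, 2.51% to 6.25%) and the count of all genes called from 0 to 39, and without X- and Y-linked genes 0 genes were called. Single-array omissions took the difference of Mcm5 between -0.12 and 0.57, that of Mcm7 between -0.25 and 0.37 and that of Gins3 between -0.32 and 0.10. No other member changed sign when 1 array was omitted or after quantile normalization. With 2 arrays a group the spread between arrays is poorly known, and no member's difference passed limma's adjusted threshold over all genes. Detection p-values were not used here.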
